A study of Mus musculus with 3 samples.

Results

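The genes for the methyl-CpG binding domain proteins Mbd1 to Mbd6 and for the Kaiso family proteins Zbtb4 and Zbtb38 were examined as targets of DNA methylation in epididymal fat. They were chosen by name, 8 of 21887 protein-coding genes, and every deposited peak overlapping a gene record or the 2000 bp on either side of it was taken. The assay was MeDIP-seq, the sequencing of fragments pulled down with an antibody against methylated DNA, and stretches enriched over background were called as peaks. All animals were male C57BL/6J mice, which entered the study at 6 weeks of age and spent 10 weeks on 1 of 3 regimens, to an age of 16 weeks. The normal diet (ND) held about 10% of its energy as fat and the high-fat diet (HFD) about 60%, and the third group (FAD) received the HFD plus drinking water that contained 20 μg/mL folic acid. There was 1 library per diet, so no value below has a replicate check, no test was made, and a difference lies between libraries. How many animals gave DNA to each library is not stated in the labels.

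Methyl-CpG binding proteins are the readers of DNA methylation. Mbd1 and Mbd2 bind methylated CpG and bring in repressors, Mbd1 through the histone methyltransferase Setdb1 and Mbd2 through the NuRD remodelling complex. Mbd3 is a core NuRD subunit whose domain does not select methylated CpG in mammals, Mbd4 is a glycosylase that removes thymine left by deamination of methylated cytosine, and Mbd5 and Mbd6 associate with the Bap1 histone deubiquitinase. Zbtb4 and Zbtb38 recognise methylated CpG with zinc fingers, as Kaiso does.

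CpG-rich starts are usually free of methylation, so starts of these genes are shown first. No peak lay at any start that was examined, and not all of these were CpG-rich. RefSeq promoter sequences (GRCm38.p6, the assembly of mm10) covered 10 starts of 6 members, with none for Mbd1 and Mbd2. The bases upstream of the gene record are printed 5′ to 3′ on the gene's strand with each CG in capitals. They cover chr6:115853401-115853591 (minus strand) for Mbd4, the member without any peak, chr10:80399532-80399781 (minus strand) for Mbd3, the member with the same peaks in all libraries, chr11:69765662-69765911 (plus strand) for Zbtb4, the member with no ND peak, and chr9:96731676-96731925 (minus strand) for Zbtb38, whose outermost start holds the fewest CG of these.
Mbd4: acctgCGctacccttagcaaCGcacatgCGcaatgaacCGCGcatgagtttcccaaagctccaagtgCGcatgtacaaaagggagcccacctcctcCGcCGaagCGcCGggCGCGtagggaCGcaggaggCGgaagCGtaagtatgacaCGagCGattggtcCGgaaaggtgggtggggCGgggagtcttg
Mbd3: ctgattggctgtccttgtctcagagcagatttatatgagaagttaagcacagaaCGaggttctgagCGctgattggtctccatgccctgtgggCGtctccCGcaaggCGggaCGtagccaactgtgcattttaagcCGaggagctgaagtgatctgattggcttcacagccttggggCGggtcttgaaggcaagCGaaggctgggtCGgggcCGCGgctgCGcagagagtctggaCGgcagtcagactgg
Zbtb4: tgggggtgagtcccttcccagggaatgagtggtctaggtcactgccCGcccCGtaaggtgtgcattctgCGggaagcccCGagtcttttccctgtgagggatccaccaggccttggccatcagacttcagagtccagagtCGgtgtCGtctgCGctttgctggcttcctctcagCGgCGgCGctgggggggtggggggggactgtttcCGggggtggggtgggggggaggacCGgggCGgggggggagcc
Zbtb38: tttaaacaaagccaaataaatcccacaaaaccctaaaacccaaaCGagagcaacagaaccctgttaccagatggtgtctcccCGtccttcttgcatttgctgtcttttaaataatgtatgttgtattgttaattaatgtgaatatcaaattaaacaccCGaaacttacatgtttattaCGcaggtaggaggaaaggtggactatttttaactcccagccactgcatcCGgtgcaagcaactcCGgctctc
Mbd4 held 19 CG in 191 bases, Mbd3 14 in 250, Zbtb4 13 in 250 and Zbtb38 6 in 250. The observed CpG number over that expected from base composition was 1.05, 0.706, 0.487 and 0.610.

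None of the 10 promoter windows, each from 250 bases before to 50 after a start, overlapped a peak in any library. Over 21263 promoter windows of protein-coding genes the share with a peak was 2.53% in ND, 3.37% in HFD and 2.11% in FAD. Within 2000 bp of a start the shares were 15.5, 21.6 and 13.7%, against 0 of the 10 member starts in each library. The 10 starts belong to 6 members and are not independent. Those of Mbd6 (chr10:127288881 and chr10:127289018) and the inner ones of Zbtb38 (chr9:96719445 and chr9:96719850) lay close together. Most starts of other genes likewise lacked a peak. The nearest case was the inner Mbd5 start, from whose promoter window a FAD peak lay 2003 bp away, while the nearest ND and HFD peaks lay 23885 and 23846 bp away. That start had 4 CG in its promoter window, with a CpG ratio of 0.302, the only member start under 0.4. The CpG ratios of the 2 Mbd6 starts were 0.973 and 0.705, and those of the 2 inner Zbtb38 starts 0.988 and 0.700.

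**Figure D1:**
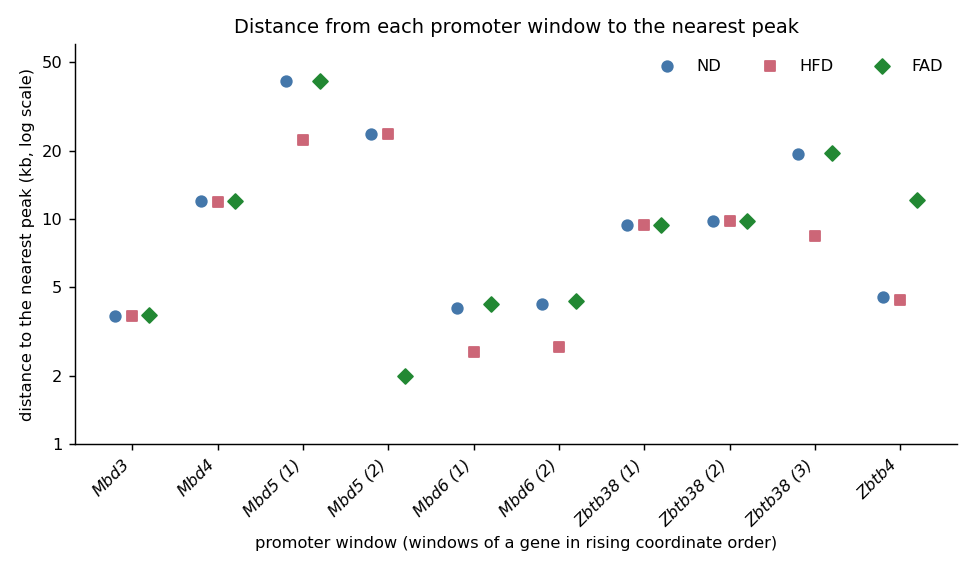
Distance in kb, on a log scale, from each of the 10 listed promoter windows to the nearest peak, with 1 marker per library. The shortest distance is 2003 bp (FAD, second Mbd5 start), and every other distance is 2576 bp or more.

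The members held 16 peaks in ND, 34 in HFD and 19 in FAD, 69 in all, of which 62 lay wholly inside a gene record. With peaks joined across libraries they formed 40 regions. Member peaks had median widths of 468, 538 and 399 bp in ND, HFD and FAD, and median score percentiles of 57.6, 52.8 and 57.5. The score is the authors' own and its scale is not stated, so a percentile ranks a peak within its own list, with high scores at the top. The HFD list was the longest and widest of the 3, with 135124 peaks of median width 587 bp over 89.1 Mb, against 101532 peaks of 507 bp over 59.6 Mb in ND and 95501 peaks of 447 bp over 49.2 Mb in FAD. Read depth is unknown from these lists, and how far depth moves with these counts was not tested. In DNA from whole tissue, methylation in more of the cells and a larger share of the cells that carry it cannot be told apart. Genes that mark cell types of fat were read for reference. The summed peaks in ND, HFD and FAD were 3, 8 and 5 for 5 adipocyte genes, 6, 11 and 8 for 5 leukocyte genes, 10, 19 and 13 for 3 endothelial genes, and 0, 3 and 0 for 3 epididymal genes. Each sum was highest in HFD, as was that over all protein-coding genes (51569, 71011 and 47374), and not every gene followed the sum of its list. Their part in the member counts was not tested. A methylation peak does not measure a cell type.

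**Figure D2:**
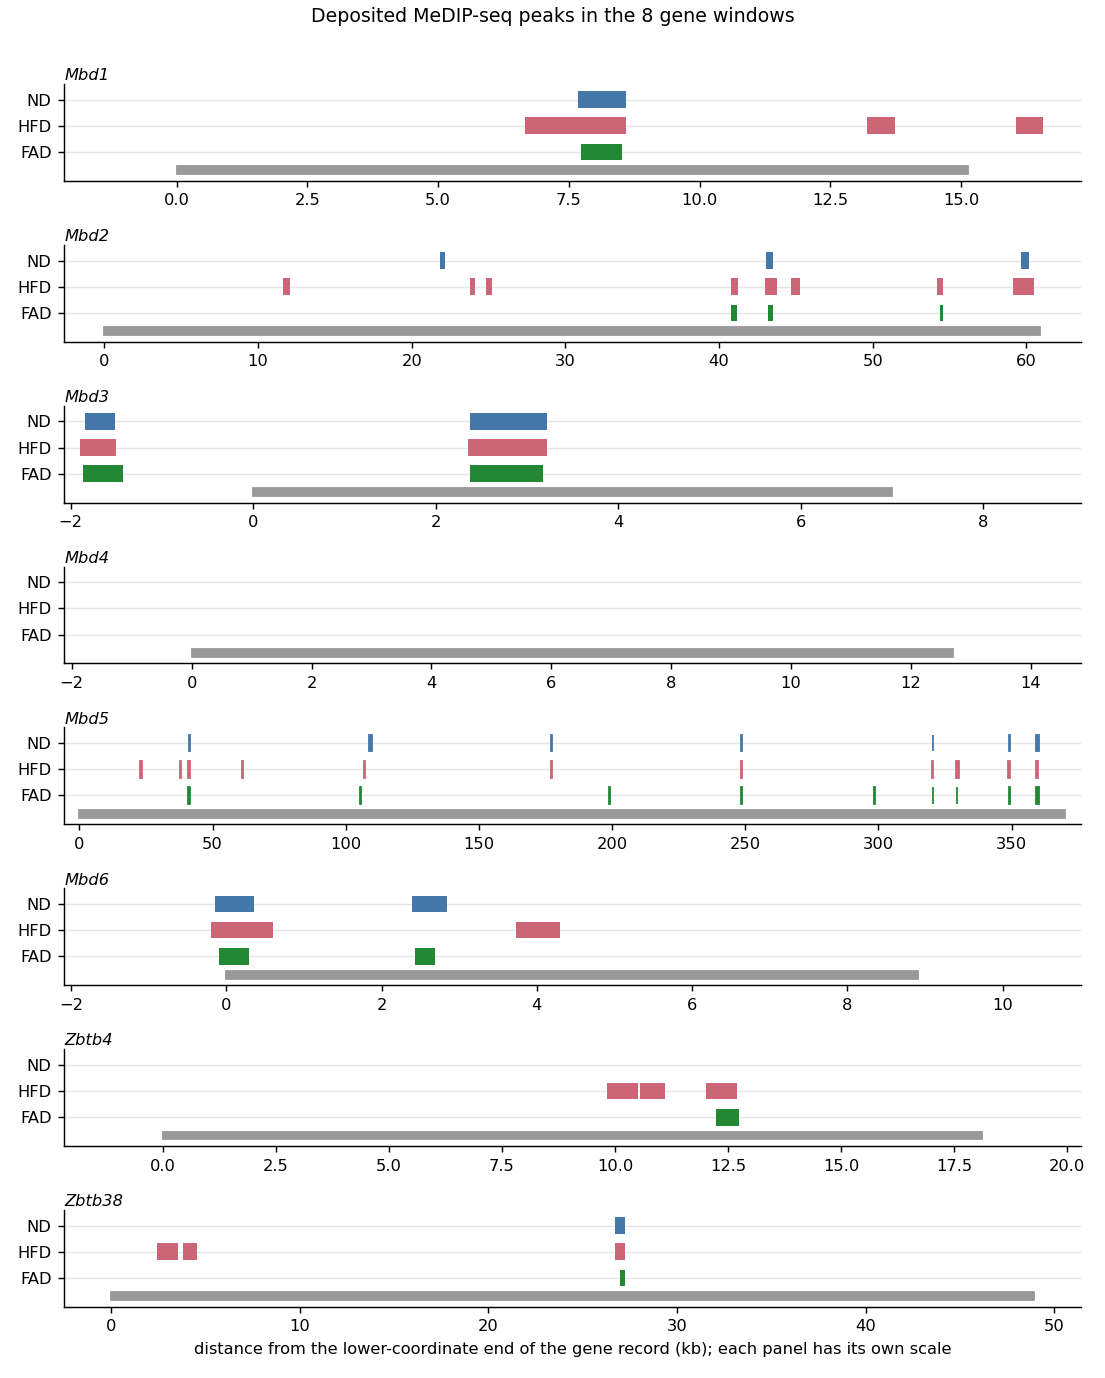
Position of every peak in the 8 gene windows, as distance in kb from the lower-coordinate end of the gene record (grey bar), with ND, HFD and FAD on separate lines and a scale of its own for each gene. Mbd4 is empty, Mbd3 has the same 2 regions in each library, and Zbtb4 has peaks in HFD and FAD and none in ND.

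Mbd4 had no peak in any library. Its record spans chr6:115840697-115853400, 12704 bp, and the peaks nearest to its promoter window lay 12058, 11852 and 12000 bp away in ND, HFD and FAD. Such an empty window was common, since 4842 other named protein-coding genes also had no peak in any library; Porcn had the nearest record length, 12703 bp.

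Mbd3 had the same 2 regions in each library, at nearly the same widths but not at the same rank. A region inside the record, with midpoints 4198 to 4216 bp downstream of the gene start, carried an ND peak at chr10:80394910-80395755 (846 bp, score 294.2), an HFD peak of 866 bp (score 401.3) and a FAD peak of 805 bp (score 133.9). These 3 stood at percentiles 90.8, 95.2 and 68.9 of their lists, and the ND and HFD peaks were the highest-scoring member peaks of those libraries. The other region lay 1426 to 1509 bp beyond the far end of Mbd3, with peaks of 337, 400 and 436 bp at percentiles 60.5, 65.7 and 36.0. All 6 Mbd3 peaks also overlapped the record of Gm30823, so neither region belongs to Mbd3 alone. Peaks covered 10.8, 11.5 and 11.3% of the window in ND, HFD and FAD, at percentiles 95.7, 90.8 and 97.7 of protein-coding genes.

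Mbd1 (chr18:74267605-74282737) had a central region in each library and 2 further HFD peaks. The central peaks were 920 bp wide in ND, 1936 bp in HFD and 778 bp in FAD, with scores of 169.0, 219.7 and 181.5, and the HFD peak was the widest of all member peaks. The ND and FAD peaks lay within the span of the HFD peak. An HFD peak of 536 bp (score 73.4) lay 4600 bp from the nearest ND peak, and another of 513 bp (score 83.2) lay 922 bp past the higher-coordinate end of the record, inside the record of Cfap53. Peaks covered 920 bp of the Mbd1 window in ND, 2985 bp in HFD and 778 bp in FAD.

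Mbd2 (chr18:70568225-70629134) had 3 peaks in ND, 8 in HFD and 3 in FAD. The only region shared by all libraries lay 43.3 to 43.4 kb from the lower-coordinate end and scored 193.3 in ND, 197.3 in HFD and 224.1 in FAD, at percentiles 80.6, 80.4 and 87.3. Of the 8 HFD peaks, 4 stood in no other list, with scores of 52.8 to 84.3. HFD and FAD shared 2 regions without an ND peak, at chr18:70609005-70609487 and chr18:70622436-70622783. The second carried the narrowest member peak, 203 bp in FAD with score 119.5. ND and HFD shared a region near the higher-coordinate end, with peaks of 506 and 1353 bp, and the nearest FAD peak lay 4238 bp from the HFD peak. Peaks covered 1329, 4713 and 939 bp of the Mbd2 window in ND, HFD and FAD.

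Mbd5, the longest member at 370190 bp (chr2:48949499-49319688), had the most peaks: 7 in ND, 13 in HFD and 9 in FAD. Its window was nevertheless sparsely covered, at 1.06, 1.88 and 1.20%, at percentiles 41.4, 36.8 and 48.1 of protein-coding genes. Peaks of all 3 libraries fell on 5 of its 17 regions. The highest-scoring of these lay 360 kb downstream of the outer start, where the record of the pseudogene Ap2m1-ps also lies, with scores of 227.0 in ND, 278.0 in HFD and 241.6 in FAD. A region at chr2:49278671-49279429 had an HFD peak (score 241.0) and a FAD peak (score 179.8), with no ND peak closer to the former than 8518 bp. A stretch 105 to 109 kb downstream of the outer start held a peak of each library without any overlap, at scores of 116.2 in ND, 77.2 in HFD and 53.2 in FAD. The ND peak there was 1064 bp wide, the widest ND peak among the members. The 3 FAD-only regions all lay in Mbd5, with scores from 53.2 to 68.9, at percentiles 3.69 to 24.7.

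Mbd6 (chr10:127281956-127290869) had 2 peaks in each library, but they did not all coincide. The region at its far end, shared with the record of Dctn2, carried peaks of 513, 800 and 389 bp in ND, HFD and FAD, with scores of 51.0, 153.7 and 62.6. Inside the gene, ND and FAD shared a region at chr10:127284349-127284791 (scores 116.8 and 92.0), while the inner HFD peak lay 897 bp from the ND peak with a score of 51.3, at percentile 2.04. This was the only member region found in ND and FAD and not in HFD.

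With the 2000 bp flank, Zbtb4 was the only member marked in some libraries and not in all. Its record, chr11:69765912-69784026, had no ND peak in the window, 3 HFD peaks and 1 FAD peak. The HFD peaks lay 10.2, 10.8 and 12.4 kb downstream of the start, with widths of 686, 565 and 673 bp and scores of 110.9, 71.2 and 59.2. The FAD peak, 509 bp wide with score 74.1, overlapped the third. The first HFD peak had no ND peak within less than 14598 bp, and that one lay outside the window. That ND peak lay 4528 bp from the Zbtb4 promoter window, so a flank of 5000 bp would take it in. All 4 peaks lay at or below percentile 55.9 of their lists.

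Zbtb38 (chr9:96682767-96731675) had 1 region in all libraries and 2 in HFD alone. The shared region, 9.42 to 9.46 kb from the nearest listed start, had peaks of 519, 539 and 245 bp in ND, HFD and FAD with scores of 85.4, 210.9 and 165.5. The HFD-only peaks, near the end opposite the starts, were 1129 bp (score 136.6) and 777 bp (score 66.2) wide, and the nearest ND peak was 10110 bp from the first. That first peak had the highest percentile, 66.2, of the HFD-only member peaks.

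**Figure D3:**
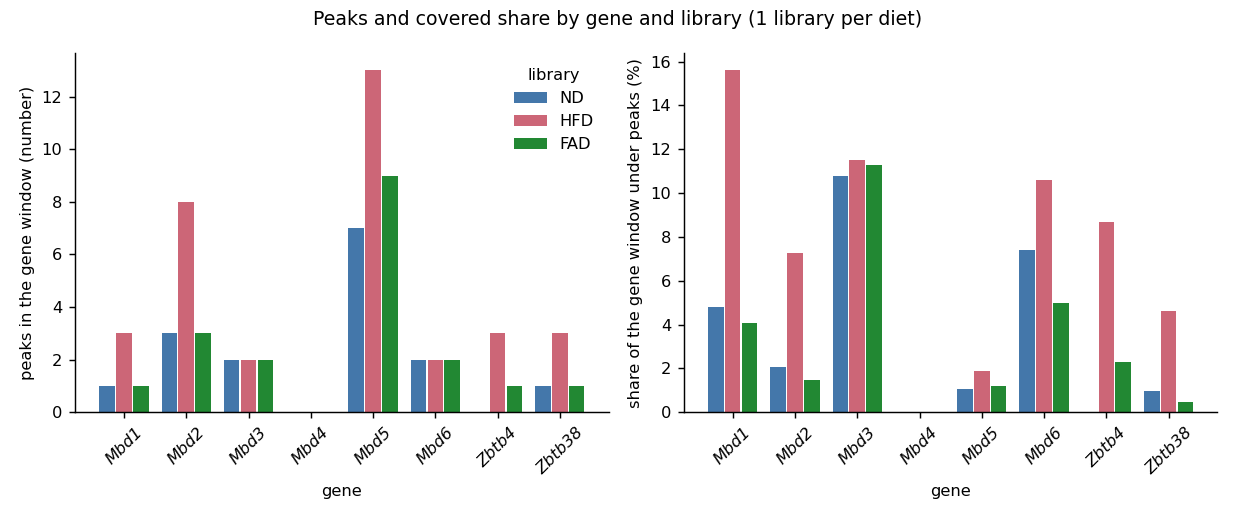
Number of peaks (left) and percent of the gene window under peaks (right) for each member, with a bar per library. Mbd1, Mbd2, Mbd5, Zbtb4 and Zbtb38 have their highest count in HFD, Mbd3 and Mbd6 have 2 peaks in each library, and the covered share is highest in HFD for the 7 members with peaks.

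The comparison of HFD with ND concerns dietary fat. The number of peaks was higher in HFD at 5 members (Mbd1, Mbd2, Mbd5, Zbtb4 and Zbtb38), equal at 2 with peaks (Mbd3 and Mbd6), and lower at none. Over all protein-coding genes 41.6% had more peaks in HFD than in ND and 7.79% fewer. With equal-length lists the same 5 members had more HFD peaks, against 22.7% of all genes, but Mbd2 went from 8 to 4 HFD peaks and Zbtb4 from 3 to 1. Only Zbtb4 had a peak in HFD and none in ND, 1 of 8 members, where 8.81% of all protein-coding genes did, and no member had the reverse, where 1.93% did. Within the top-scoring 50% of each list this held for 2 members, Zbtb4 and Zbtb38, against 11.0% of genes. Of 6 members with peaks in both libraries, 4 were covered at least 1.5 times as far in HFD as in ND (Mbd1, Mbd2, Mbd5 and Zbtb38), against 48.6% of all such genes, and none the other way, against 2.58%. The ratio of covered length was 3.24 for Mbd1, 3.55 for Mbd2, 1.07 for Mbd3, 1.77 for Mbd5, 1.43 for Mbd6 and 4.71 for Zbtb38. The median of these was 2.51, and that over 13703 protein-coding genes was 1.48. With equal-length lists 5 of 6 members passed the ratio of 1.5, Mbd6 among them, against 29.6% of genes. At Mbd6 these lists kept 1 ND peak (443 bp) and 1 HFD peak (800 bp), which do not overlap. The ND peak that overlapped this HFD peak, with score 51.0, had dropped out.

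Of the 34 HFD peaks at members, 21 (61.8%) overlapped no ND peak, against 39.3% of HFD peaks in all protein-coding gene windows. Of the 16 ND peaks, 3 (18.8%) overlapped no HFD peak, against 15.5%. Mbd5 held 7 and Mbd2 6 of the 21, so peaks of the same gene make up most of the count. Peaks of a gene share their surroundings and are not replicates. With each list shortened to its 95501 top-scoring peaks, 13 of 25 HFD peaks (52.0%) overlapped no ND peak, against 28.5% of all.

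The comparison of FAD with HFD concerns folic acid added to the high-fat diet. It shares the HFD library with the comparison above, so both read the same HFD peaks. No member had a peak in HFD and none in FAD, where 10.9% of protein-coding genes did, or the reverse, where 1.39% did. Within the top-scoring 50% of each list, Mbd6 and Zbtb4 had an HFD peak and no FAD peak, 2 of 8, against 12.9% of genes. Of 7 members with peaks in both, 6 were covered at least 1.5 times as far in HFD as in FAD (all but Mbd3), against 68.9% of all such genes, and none the other way, against 1.19%. With equal-length lists 3 of the 6 (Mbd1, Mbd2 and Zbtb38) passed, and Mbd5, Mbd6 and Zbtb4 did not, where 46.4% of genes passed. The HFD to FAD ratio of covered length ran from 1.02 at Mbd3 to 9.98 at Zbtb38, with a median of 3.78, where the median over 13235 genes was 1.84. At Zbtb38 these were 2445 and 245 bp. Of the 34 HFD peaks, 19 overlapped no FAD peak (55.9%, against 43.5% of all), and of the 19 FAD peaks 4 overlapped no HFD peak (21.1%, against 14.0%), 3 of them in Mbd5 and 1 in Mbd6. With lists of equal length, 12 of 25 HFD peaks (48.0%) overlapped no FAD peak, against 30.3% of all.

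FAD and ND were closer to each other in count and cover. The summed covered length was 8881 bp in ND and 8843 bp in FAD, beside 21740 bp in HFD. Over all protein-coding genes HFD was also highest, with 27892653 bp in ND, 22411673 bp in FAD and 44554257 bp in HFD. The FAD to ND ratio of covered length ran from 0.472 at Zbtb38 to 1.13 at Mbd5. Its median was 0.776 over 6 members and 0.824 over 12658 genes. Zbtb4 had a peak in FAD and none in ND, where 4.03% of protein-coding genes did, and no member the reverse, where 6.70% did. Within the top-scoring 50% of each list Zbtb4 no longer had a FAD peak. There, Zbtb38 had a FAD peak and no ND peak, against 4.79% of genes, and Mbd6 had the reverse, against 7.14%. No member with peaks in both was covered at least 1.5 times as far in FAD as in ND, against 7.23% of genes, and 1 of 6, Zbtb38 with 519 and 245 bp, was in the other direction, against 28.6%. The positions matched less closely than the totals. Of the 19 FAD peaks 7 (36.8%) overlapped no ND peak, against 26.1% of all, and of the 16 ND peaks 4 (25%) overlapped no FAD peak, against 32.5%.

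Regions common to the 3 libraries were fewer among the members than over all gene windows. Of the 40 member regions 11 (27.5%) had a peak in every library, and of 79751 regions in protein-coding windows 39.0% did. Mbd5 held 17 of the 40 and Mbd2 9, so these genes weigh most in the shares, and regions of the same gene are not replicates. Regions in HFD alone numbered 17 (42.5%), against 24.7%, and lay in 6 members (Mbd1, Mbd2, Mbd5, Mbd6, Zbtb4 and Zbtb38). In ND alone stood 2 regions (5%, against 7.47%) and in FAD alone 3 (7.5%, against 5.82%). HFD and FAD shared 4 (10.0%, against 8.70%), ND and HFD 2 (5%, against 12.2%), and ND and FAD 1 (2.50%, against 2.11%). The HFD peaks of regions found in HFD alone had a median score percentile of 33.5 (range 2.04 to 66.2), and those of the 11 common regions 82.4 (range 54.9 to 95.2), so the 2 kinds overlapped in rank. Over all protein-coding windows the medians were 24.3 and 73.7.

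**Figure D4:**
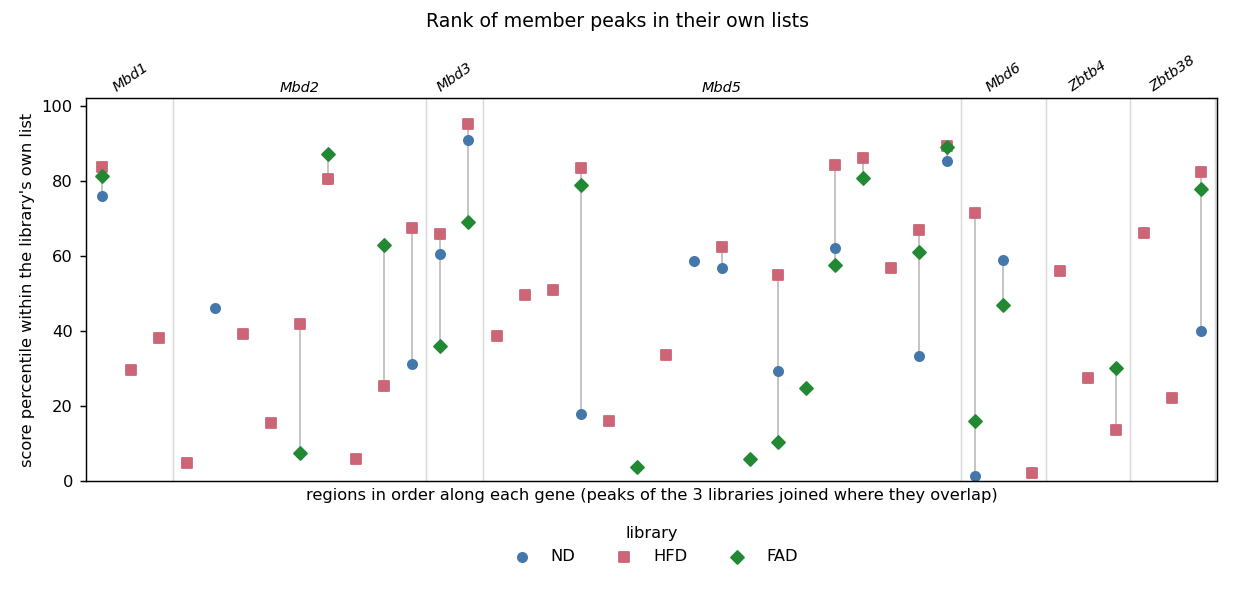
Score percentile of each member peak within its own library's list, for the 40 regions in order along each gene, with grey lines joining libraries that share a region. HFD markers that stand alone range from 2.04 to 66.2, and those of the 11 regions common to all libraries from 54.9 to 95.2.

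The member whose 3 counts were hardest to match was Mbd5. No other named protein-coding gene had its counts of 7, 13 and 9. At a summed difference of 1 there were 11 genes, of which Adamts12, with 7, 14 and 9, was nearest in length. The counts of Mbd2 were shared by 3 genes, of which Pde6a was nearest in length. Those of Zbtb4 were shared by 40, with Irak1bp1 the nearest, and those of Mbd1 and Zbtb38, which are equal, by 203, with Krt23 and Plekha8 the nearest to each. The counts of Mbd3 and Mbd6, also equal, were shared by 580 genes, with Cyp2w1 and Cygb the nearest.

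Other readers and partners of the family were read in the same way. Zbtb33, which encodes Kaiso and lies on the X chromosome, had no peak in any library. Of 31 reader and partner genes 25 carried peaks in ND, 27 in HFD and 26 in FAD. Over all protein-coding genes the shares with a peak were 64.5, 71.4 and 61.9%, and 6, 7 and 7 of the 8 members had one. Setdb2, a further gene with a methyl-CpG binding domain, and the NuRD gene Mta2 carried HFD peaks and no ND peak, with top scores of 52.8 and 63.5. These were 2 of 31 genes, against 8.81% of all protein-coding genes, and none went the other way, against 1.93%. Setdb2 was also the only gene of the list with peaks in HFD but not FAD, against 10.9% of all genes, and none had the reverse, against 1.39%. Of 25 genes with peaks in ND and HFD, 15 were covered at least 1.5 times as far in HFD, among them Baz2b (8807 and 17230 bp), and 1, the thymine glycosylase gene Tdg (2551 and 1549 bp), at least 1.5 times as far in ND. Of 26 with peaks in HFD and FAD, 18 were covered at least 1.5 times as far in HFD and 0 in FAD. In the order given, the shares of all genes were 48.6% in HFD and 2.58% in ND, then 68.9% in HFD and 1.19% in FAD. The NuRD genes, partners of Mbd2 and Mbd3, had a peak at 9 of 11 in ND, 10 in HFD and 10 in FAD. Their summed peaks were 23, 35 and 30. Rbbp7, also X-linked, had none, and neither did the autosomal reader gene Uhrf2. The Bap1 complex and Foxk genes, partners of Mbd5 and Mbd6, were marked at all 5 in each library, with 26, 30 and 19 peaks, and Setdb1, the partner of Mbd1, had 1, 2 and 2. The thymine repair genes Tdg and Smug1, set beside Mbd4, had 6 peaks in ND, 4 in HFD and 4 in FAD. The difference lay at Tdg, with 4, 2 and 2, while Smug1 had 2 in each library. The hemimethylated DNA readers Uhrf1 and Uhrf2 had 3, 3 and 1, all at Uhrf1. Atf7ip, a partner of Mbd1 and Setdb1, had 8, 10 and 8, and the co-repressor genes Ncor1, Sin3a and Tbl1xr1 had 11, 16 and 11.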

How the data were processed

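MeDIP-seq peak lists from epididymal fat were used, 1 per diet (ND, HFD and FAD), with groups taken from the labels. Per the labels' protocols, a column kit served for DNA and an Illumina kit for the libraries. The submitters' processing notes give mm10 as the build of the deposited lists, and the names of the peaks begin with MACS, a peak caller. No source used here gives the caller's version, settings or control, the aligner or the read depth. Each peak has the authors' own score, at least 50 in the deposited lists, with no scale stated. It served only for ranks and thresholds inside a list. Peaks were called per library, so a missing peak means that no stretch passed the caller's threshold there.

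File starts were read as counted from 0 and are printed counted from 1. Gene records came from a RefSeq table (GRCm38.p6) with no exons, so exon and intron were not assigned. Strand and starts came from RefSeq promoters, not used here for Mbd1 and Mbd2. A peak was counted with 1 bp of overlap with the record or 2000 bp on either side, and matched between libraries with 1 bp. Percentiles among genes count ties at their middle. Backgrounds use all 21887 protein-coding genes. Neighbouring windows can share a peak; shares of peaks and regions count such a peak once, and sums per gene do not. Genes alike in count were those with the smallest summed difference of the 3 counts, ties by record length, passing over symbols of Gm with digits or ending in Rik. From the partner list, Zbtb33 and up to 3 genes per direction with the highest score among those marked in 1 library only were to be named. Setdb1, Baz2b and Rbbp7, and the members of the smaller sublists, were named after their values were seen, and 3 genes of the list are not reported here. The members and lists were chosen with earlier results of these data known. Alternatives were equal-length lists of 95501 peaks, the 50% of peaks with the highest scores, flanks of 0 and 5000 bp, peaks wholly inside, a reciprocal overlap of 50%, and no peak within 500 bp. The overlap code was tested on simulated data and against bedtools. Python 3.11.15, numpy 2.4.6, pandas 2.3.3, matplotlib 3.10.9 and bedtools 2.31.1 were used.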

Additional observations from a re-analysis of the deposited data

How the results depend on the processing

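With lists of equal length, HFD peaks without an ND peak went from 21 of 34 (61.8%) to 13 of 25 (52.0%). Over all gene windows that share went from 39.3 to 28.5%. HFD peaks without a FAD peak went from 19 of 34 (55.9%) to 12 of 25 (48.0%), and over all gene windows from 43.5 to 30.3%. With the 50% of peaks that scored highest, the members held 9, 18 and 10 peaks in ND, HFD and FAD. Of the 18 HFD peaks, 11 had no ND peak and 9 no FAD peak, and of the 10 FAD peaks 1 had no HFD peak. With a reciprocal overlap of 50%, 5 of 16 ND peaks and 9 of 19 FAD peaks had no HFD peak. The shares over all gene windows were not computed for unmatched peaks under these last settings, so no comparison with other genes can be made there. Counts of members were recomputed with equal-length lists and with the top 50%, a choice made after the data were seen. They were not recomputed with other flanks. For equal lengths, 3 members were covered at least 1.5 times as far in HFD as in FAD, in place of 6, against 46.4% of genes. With these lists 1 member (Mbd6) had more peaks in FAD than in HFD, in place of 0, against 17.5% of genes. With the 50% of peaks that scored highest, 2 members had a peak in HFD and none in ND, 2 in HFD and none in FAD, and 1 in ND and none in FAD, in place of 1, 0 and 0. The shares of all genes were 11.0, 12.9 and 7.14%. In the top 50%, 0 members were covered at least 1.5 times as far in ND as in FAD, in place of 1, against 26.5% of genes. There, 2 members had more peaks in ND than in FAD, in place of 0, against 17.2% of genes. Flanks of 0 and 5000 bp, peaks wholly inside the window and a distance of 500 bp kept every count of peaks within 1.5 times its value. The order of libraries by member peaks, HFD, FAD, ND, was the same with equal-length lists, the top 50%, both flanks and peaks wholly inside. No paired analysis was possible because there was 1 library per diet and no test. Read depth is unknown, which limits what an absent peak can show.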
